A study of Mus musculus with 6 samples.

Results

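Glutathione S-transferases couple the tripeptide glutathione to reactive molecules such as lipid aldehydes, quinones and peroxides, and so help a cell to clear them. The soluble enzymes fall into classes named after Greek letters, and a separate family, the microsomal transferases, sits in membranes. Many of their genes respond to NRF2, a transcription factor that binds antioxidant response elements when a cell meets electrophiles or oxidants, and the products are exported and trimmed by gamma-glutamyl transferases and peptidases. In the uterus, the lining epithelium, the stroma beneath it, the muscle coat and the outer mesothelium can each carry a different set of these enzymes.

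The 10 transferase genes described here were chosen by name from the 24077 genes of the count tables. They comprised 4 genes of the mu class (Gstm1, Gstm2, Gstm5 and Gstm7), Gsta4 of the alpha class, Gsto1 of the omega class, Gstp1 of the pi class, Gstt1 of the theta class, and the microsomal genes Mgst1 and Mgst3. All 10 were counted in every library. The rule was a list of names and set no threshold on a level, though it was drawn up with earlier results of these data known.

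Uteri came from 12-month-old female CD-1 mice that had received, on neonatal days 1 to 5, injections of either corn oil (CO) or diethylstilbestrol (DES), a synthetic estrogen, at 1 mg/kg/day in corn oil. Mice given DES in this way go on to develop uterine adenocarcinoma and remain in persistent estrus, so the CO mice were collected in estrus. The single-cell series held 1 CO library, pooled from 2 mice, and 1 DES library, pooled from 4 mice. The spatial series held 4 Visium sections, each from 1 mouse and all on the same slide, and they are called CO A, CO B, DES A and DES B. The study describes a tissue fold in CO B and says that clusters were harder to identify in DES B. It screened frozen sections of more mice for epithelium in both groups and for adenocarcinoma in the DES group. It then chose 2 mice per group and cored the blocks, so the sections are selected areas.

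The CO single-cell library held 32387 barcodes with a median of 6779 unique molecular identifiers (UMIs), and the DES library held 16312 barcodes with a median of 10153.5. A cell type was annotated for 12253 and 9701 of them. The libraries shared 180 barcode sequences, of which 32 were annotated in both. In CO, every marker list was highest in its own cell type except the myeloid list, which summed to 3287 CPM (UMIs scaled to a library total of 1000000) in lymphocytes and 2511 CPM in myeloid cells. DES myeloid markers were highest in a separate Lyz2-high myeloid group. The DES library held 5 endothelial cells and 1 stromal cell, so those types were not compared. The sections held 1357 to 1834 spots and 9117099 to 12506177 UMIs each. With 1 library per condition, no test between conditions was possible in single cells: levels there are CPM of UMIs summed over cells, with exact Poisson intervals at the 95% level that cover counting error only.

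The mu genes lie side by side on mouse chromosome 3 and encode similar proteins, so the sequences that keep their counts apart are shown before the values. In the GRCm38 build, which is the mm10 build of the count tables, GENCODE placed Gstm5 at chr3:107895821-107898686 on the plus strand. On the minus strand it placed Gstm7 at chr3:107926334-107931817, Gstm2 at chr3:107981702-107986453 and Gstm1 at chr3:108012255-108017973. The coding sequences of Gstm1, Gstm2 and Gstm7 were each 654 bases long. Gstm1 was 86.1% identical to Gstm2 and 83.1% identical to Gstm7, and Gstm2 was 85.4% identical to Gstm7. Gstm5, with 672 coding bases, was 71.1% to 72.0% identical to the other 3 genes. The first 60 coding bases of the 3 closer genes follow, with capitals at each base that differs from Gstm1, which gave 12 differences for Gstm2 and 16 for Gstm7.
Gstm1: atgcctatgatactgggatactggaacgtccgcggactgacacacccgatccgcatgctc
Gstm2: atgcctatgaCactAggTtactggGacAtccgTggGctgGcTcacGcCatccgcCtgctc
Gstm7: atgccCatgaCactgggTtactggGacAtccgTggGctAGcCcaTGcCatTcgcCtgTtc

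Both assays read the 3′ end of a transcript, and there the mu genes could be told apart. Over the last 500 bases of each member's longest coding transcript, no 100-base window of Gstm1, Gstm2, Gstm5 or Gstm7 occurred in another annotated transcript. The same held for the other members with the exception of Gstp1. Of its 401 windows, 270 (67.3%) also occurred in Gstp2 or the pseudogene Gstp-ps, and at the 90-base read length of the sections 280 of 411 (68.1%) did. Gstp1 levels are therefore uncertain, since reads may be split or lost between the copies. Gstm5 and Gsto1 each overlapped a gene on the opposite strand, 4933431E20Rik and Cfap43.

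Gstm5 and Gstm7 are neighbours transcribed from opposite strands. Their promoters are shown because Gstm5 was higher in mesothelium than in epithelium, and Gstm7 was higher in epithelium than in mesothelium. RefSeq promoter windows of 250 bases before the start were available for 9 of the 10 members. The motifs searched on both strands were the antioxidant response element core TGACNNNGC and the AP-1 site TGAGTCA. In capitals, the stretch before Gstm5 at chr3:107895604-107895820 (plus strand) held an AP-1 match and an antioxidant response element match, which did not overlap. The window before Gstm7 at chr3:107931818-107932067 (minus strand) held neither motif.
Gstm5: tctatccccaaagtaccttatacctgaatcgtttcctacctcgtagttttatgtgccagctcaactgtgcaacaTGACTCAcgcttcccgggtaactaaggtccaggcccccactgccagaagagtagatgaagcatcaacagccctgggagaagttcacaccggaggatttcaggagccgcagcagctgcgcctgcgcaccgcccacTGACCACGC
Gstm7: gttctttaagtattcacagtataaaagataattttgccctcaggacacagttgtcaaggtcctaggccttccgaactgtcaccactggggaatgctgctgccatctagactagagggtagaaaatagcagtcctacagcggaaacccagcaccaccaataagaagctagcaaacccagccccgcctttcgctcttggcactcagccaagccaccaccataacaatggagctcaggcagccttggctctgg
A further RefSeq window of Gstm7, from a start inside the gene, held an antioxidant response element match, as did a window of Mgst1. Counted over member windows, 3 of 12 held that core, against 10.2% of all 32851 mouse promoter windows. The AP-1 site was found in 2 of 12, those of Gstm5 and Gstp1, against 4.46% of all windows.

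The mesothelium, the outer cell layer of the uterus, held the highest levels of 6 members in both libraries: Gsta4, Gstm1, Gstm2, Gstm5, Gstt1 and Mgst1. The epithelium held the highest levels of Gstm7 and Gsto1. For Gstm7 in CO this rested on a small cluster: the 2095 luminal cells were at 12.7 CPM and the Ctla2a group at 14.7 CPM, with overlapping intervals. The order of levels was read within a gene only, since UMI counts of different genes were not compared.

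Among the mu genes, Gstm5 stood at 1402 CPM in the CO mesothelium (6866 cells) and at 1703 CPM in that of DES (3837 cells). The next CO type, myeloid cells, was at 346 CPM, and the next DES type, epithelium, was at 121 CPM. Neither interval overlapped that of the mesothelium. The CO myeloid group also held mesothelial markers, as given below. Gstm1, a broad conjugating enzyme, was at 600 CPM in CO and 885 CPM in DES mesothelium. It was second in CO pericytes (465 CPM) and, in DES, in the Lyz2-high myeloid cells (500 CPM, 136 cells). Gstm2 was at 218 and 185 CPM in CO and DES mesothelium, and CO stromal cells came next at 83.7 CPM. Gstm7 had the reverse order: it was at 42.9 CPM in CO and 46.5 CPM in DES epithelium, and at 3.4 and 3.0 CPM in mesothelium.

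Gsta4, an alpha class enzyme known for conjugating the lipid aldehyde 4-hydroxynonenal, was at 161 CPM in CO and 190 CPM in DES mesothelium. The second rank differed between libraries. In CO it was the Ctla2a group (70.3 CPM), whose interval overlapped that of pericytes (42.6 CPM). In DES it was the epithelium (112 CPM), well separated from lymphocytes at 20.8 CPM. Gstt1, the theta class member, was at 89.6 and 134 CPM in CO and DES mesothelium. In epithelium it was at only 2.6 and 2.3 CPM, its lowest value in both libraries. The intervals there overlapped those of other low types, among them CO lymphocytes (3.1 CPM) and DES Lyz2-high myeloid cells (4.9 CPM).

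Gsto1, an omega class enzyme with thioltransferase and dehydroascorbate reductase activity, had the opposite distribution to Gstt1. It was at 976 CPM in CO and 1555 CPM in DES epithelium, and at 73.3 and 66.0 CPM in mesothelium, the lowest type of both. After each cell was thinned to 3000 UMIs, 86.5% of CO and 88.4% of DES epithelial cells held a Gsto1 UMI. Among lymphocytes, taken as a type in which free RNA would account for part of the signal, 38.1% and 36.6% did. Median depths were 23458 and 21900 UMIs in CO and DES epithelium and 4033 and 5599 UMIs in lymphocytes.

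Gstp1 was highest in CO myocytes (193 CPM, 85 cells) and mesothelium (182 CPM), whose intervals overlapped, and in DES mesothelium (101 CPM). The membrane enzyme Mgst1 was at 642 and 884 CPM in CO and DES mesothelium. In DES the Lyz2-high myeloid cells followed at 638 CPM and the epithelium at 555 CPM. Mgst3, a microsomal enzyme with peroxidase activity, was highest in CO pericytes (281 CPM, 75 cells), ahead of CO epithelium (212 CPM). In DES it was highest in epithelium (99.2 CPM). DES lymphocytes also held Mgst1 at 299 CPM, against 121 CPM in CO lymphocytes, and the part of free RNA in these values was not tested.

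In the epithelium, 2 of the 9 members that reached 20 CPM in either library were higher in DES by 2-fold or more, and 1 was lower. Across 6196 genes at that level, 5.6% were higher and 7.62% lower by that fold. The median log2 ratio of the 9 members was 0.67, and that of all genes was 0.02. These ratios compare 1 library of each condition (2583 CO and 5255 DES cells), so they have no replicate check.

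Gsta4 was at 39.2 CPM in CO and 112 CPM in DES epithelium, a ratio of 2.86 (95% counting interval 2.75 to 2.97). The share of thinned cells with a Gsta4 UMI was 9.56% in CO and 28.3% in DES, beside 4.84% and 5.16% in lymphocytes. Without thinning, 48.9% and 77.7% of epithelial cells held a UMI. Gstm1 was the other member past 2-fold, with 49.6 CPM in CO and 105 CPM in DES, a ratio of 2.12 (2.05 to 2.19). The DES epithelial level of Gstm1 had an interval that overlapped that of DES lymphocytes (101 CPM).

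Mgst3 was the member lower by 2-fold or more, from 212 CPM in CO to 99.2 CPM in DES, a ratio of 0.469 (0.459 to 0.479). Mgst1 was at 286 and 555 CPM, a ratio of 1.94. Gsto1, Gstm2 and Gstm5 had ratios of 1.59, 1.60 and 1.51, and Gstm7 stood at 1.08. The CO level of Gstm7 rested on few cells, since 71 of the 2583 held 1982 of its 3383 UMIs, as described with the clusters. Gstp1 had a ratio of 0.604 and, with its shared reads, is uncertain. Gstt1 was below 20 CPM in both. As a mean of CPM over cells, Gstm1 and Mgst3 fell short of 2-fold, at ratios of 1.97 and 0.515, and Gsta4 was at 3.27.

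In the mesothelium no member reached 2-fold in either direction, where 1.75% of 6413 genes were higher and 2.11% lower. Ratios of DES to CO there ran from 0.555 for Gstp1 to 1.49 for Gstt1, with 1.47 for Gstm1 and 1.18 for Gsta4. Among myeloid cells, 6 of 8 members were lower in DES by 2-fold or more, where 20.1% of all genes were. The CO myeloid group had 67 cells, and its marker list was below that of lymphocytes, as given above. Gstm5 was at 346 CPM there and at 77.5 CPM in the 228 DES myeloid cells. The CO myeloid group was also second for the mesothelial marker list, at 498 CPM against 2343 CPM in mesothelium. In DES the second type for that list was lymphocytes, at 105 CPM. The part of mesothelial RNA in the myeloid values was not tested.

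Within the CO epithelium Gstm1, Gstm5 and Gstm7 were higher in the glands than in the lining, and all 4 mu genes were higher in a small cluster. The study split CO epithelium into 15 clusters: luminal clusters (2095 cells), gland clusters 3, 8, 13 and 14 (417 cells), and cluster 12 (71 cells), which it proposed as epithelial stem cells. The clusters were formed on these same counts, so differences among them are given as a description.

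Gstm7 was at 1121 CPM in cluster 12, at 61.3 CPM in the gland clusters and at 12.7 CPM in the luminal clusters. The ratio of cluster 12 to luminal cells was 88.4 (95% counting interval 81.5 to 95.8). After thinning, 84.5% of cluster 12 cells held a Gstm7 UMI, against 8.43% of gland and 2.55% of luminal cells, and 1.29% of CO lymphocytes. Median depths were 20061, 17202 and 25654 UMIs. The cluster nearest to it was gland cluster 14 (28 cells) at 229 CPM, and among luminal clusters the cycling cluster 4 stood highest at 48.7 CPM.

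Cluster 12 also held the highest cluster level of Gstm1, 417 CPM, against 34.2 CPM in luminal cells, a ratio of 12.2. Gstm5 was 5.00 times and Gstm2 2.16 times its luminal level there. Mgst3 was at 57.7 CPM, 0.242 of the luminal 239 CPM. Gsto1 and Mgst1 had ratios of 0.941 and 0.992. Of the 9 members at 20 CPM or more, 4 were higher in cluster 12 by 2-fold or more and 1 lower, against 6.69% and 5.6% of all genes. The study had already reported Gstm7 and other Gstm genes as raised in this cluster, from the same cells. The members were chosen with earlier results known, so this count is a description.

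In the gland clusters Gstm5 was at 405 CPM, 11.1 times its luminal level of 36.5 CPM. Its highest cluster was cluster 14, at 752 CPM. Gstm7 and Gstm1 had gland to luminal ratios of 4.83 and 2.81, and Gstm2 of 0.920 (95% counting interval 0.815 to 1.03). The other way ran 3 members: Mgst3 had a ratio of 0.127, Gsta4 of 0.156 and Gsto1 of 0.433. Gsta4 was at 1.1 CPM in cluster 14, from 1 UMI. The shares of all genes past 2-fold were 9.84% higher and 12.6% lower. Over the 15 clusters, log2 levels of Gstm5 and Mgst3 had a Pearson correlation of -0.94, those of Gsta4 and Gsto1 of 0.91, and those of Gstm1 and Gstm7 of 0.85. The clusters share 1 library, and the values carry no p.

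**Figure D1:**
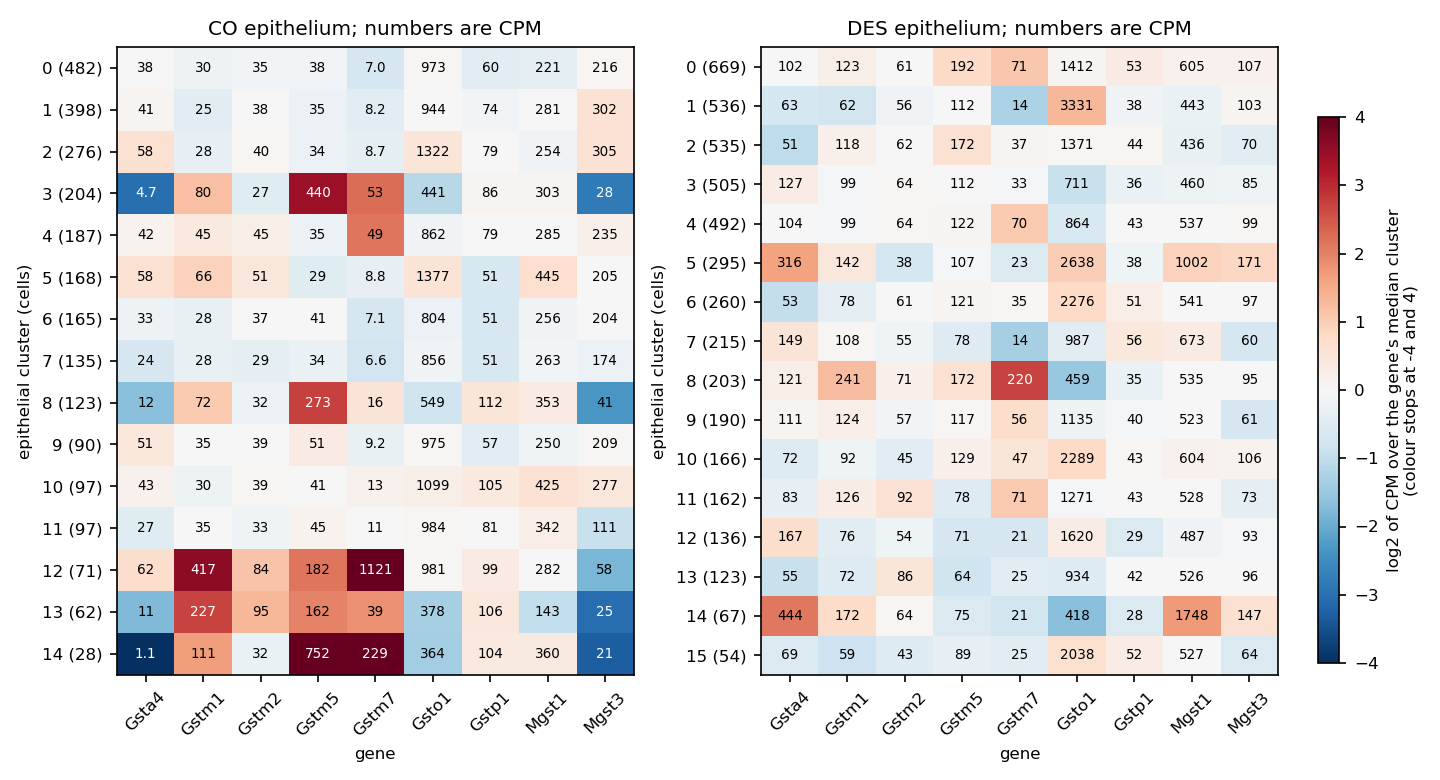
Level of 9 members in each epithelial cluster of the CO library (left, 15 clusters) and the DES library (right, 16 clusters), with cell numbers in brackets; Gstt1 is left out because it was below 20 CPM. Printed numbers are CPM and colour is the log2 ratio to the gene's median cluster, with Gstm7 deepest in CO cluster 12 (1121 CPM) and DES cluster 8 (220 CPM).

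In the clustered DES epithelium (4608 cells) the mu genes covered a narrower range of levels over the clusters than in CO. Gstm7 was highest in DES cluster 8 (203 cells) at 220 CPM, and the other 15 clusters ran from 13.7 to 71.5 CPM. That cluster also had the highest Gstm1 level, 241 CPM. Gstm5 ran from 63.8 to 192 CPM over the DES clusters, a narrower range than the 29.2 to 752 CPM of the CO clusters. The CO and DES clusters were made separately, so a number in 1 library does not name the same cells in the other.

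Against CO luminal cells alone, 5 of 9 members were higher by 2-fold or more in DES epithelium and 1 was lower, beside 6.5% and 8.3% of all genes. The ratios were 3.88 for Gstm7, 3.47 for Gstm5, 3.10 for Gstm1, 2.53 for Gsta4 and 2.01 for Mgst1. Mgst3 was at 0.402. The median log2 ratio of the 9 members was 1.00 against luminal, 0.76 against gland and -0.47 against cluster 12 cells of CO. For all genes these medians were 0.02, 0.15 and -0.13. Set against CO gland cells, Gstm5 in DES was at 0.312 and Gsta4 at 16.3 (95% counting interval 12.6 to 21.4), with 58 Gsta4 UMIs in all gland cells. DES epithelial values of all 4 mu genes lay between those of CO luminal and CO cluster 12 cells, as did that of Mgst3. Those of Gsta4, Gsto1, Gstp1, Gstt1 and Mgst1 lay outside that range. The values of Gstm5, Gstm7 and Mgst3 also lay between those of CO luminal and CO gland cells.

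Gsta4, Mgst1 and Gsto1 were highest in other DES clusters. Gsta4 was highest in cluster 14 (67 cells) at 444 CPM and in cluster 5, which the study proposed as cancer cells (295 cells), at 316 CPM, over a cluster median of 103 CPM. Mgst1 was highest in the same clusters, at 1748 and 1002 CPM. Gsto1 was highest in cluster 1 (3331 CPM) and cluster 5 (2638 CPM), and lowest in cluster 14 (418 CPM). Over the 16 DES clusters Gsta4 and Mgst1 had a correlation of 0.80, and Gsta4 and Gsto1 of -0.40, where CO had given -0.01 and 0.91.

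The genes whose cluster profile was most like each member were sought among 7791 genes in CO and 7132 in DES. Gsta4 was closest to Dcxr in CO (r = 0.98 over 15 clusters) and to Chad in DES (0.92 over 16). Gstm7 was closest to Dlgap1 (0.94) in CO and to Fn1 (0.84) in DES. Gstm5 was closest to Nrgn (0.98) in CO, and Mgst3 to Cblc (0.99). Gsto1 was closest to Gng5 (0.95) in CO and to Rhpn2 (0.96) in DES.

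DES cells in which Krt14 and Trp63 each had over 1 UMI, the study's rule for basal cells, were 483 in number. They were at 159 CPM for Gsta4 and 154 CPM for Mgst3, against 108 and 95.9 CPM in the clustered DES epithelium, ratios of 1.47 and 1.61. By 2-fold or more 3 members were lower, beside 7.1% of all genes: Gstm7 (9.1 CPM, ratio 0.185), Gstm5 (55.1 CPM, 0.435) and Gsto1 (732 CPM, 0.454). No member was higher by 2-fold, beside 9.72% of all genes. A Gstm7 UMI was found in 0.828% of thinned basal cells and in 4.23% of DES lymphocytes. The basal level had an interval that overlapped that of DES lymphocytes (11.4 CPM) and lay above that of DES mesothelium (3.0 CPM). The part of free RNA in it was not tested.

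The sections gave replicates, with 2 mice per group. UMIs were summed over all spots of a section, or over groups of spots: the stromal cluster the study named in each section, and the 15% of spots with the highest epithelial minus muscle marker score (epithelium-rich) or the reverse (muscle-rich). A 55 µm spot can hold several cells, so in these sums fewer cells of a type and less RNA per cell cannot be told apart. Tests were edgeR quasi-likelihood tests over all genes with Benjamini-Hochberg adjustment at 0.05. Their fold changes used fitted scaling factors (TMM). CPM and the overlap of sections used raw totals, so they can differ from the fold changes. An exact permutation test over 2 against 2 sections cannot go below 0.333.

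Over whole sections Gsta4 rose. It was at 34.7 and 46.1 CPM in CO A and CO B and at 633 and 484 CPM in DES A and DES B, so the groups were far apart. The log2 fold change was 3.58 (SE 0.24, edgeR adjusted p = 0.0167), a fold of 12.0. It was the only member of 10 past the threshold, which 5.3% of 14098 genes passed. The adjusted p was 0.0515 without DES A and 0.0604 without DES B, and the log2 fold change stayed between 3.40 and 3.77 whichever section was left out.

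Mgst3 was at 119 and 77.8 CPM in the CO sections and 312 and 232 CPM in the DES sections, without overlap. Its log2 fold change of 1.25 did not pass (edgeR adjusted p = 0.0798). Mgst1 was at 226 and 293 CPM in CO and 478 and 574 CPM in DES, with a log2 fold change of 0.82 (edgeR adjusted p = 0.107). Gstm2, at 55.8 and 54.7 CPM in CO and 90.1 and 76.1 CPM in DES, was the other member without overlap. All 4 non-overlapping members were higher in DES, as were 43.8% of all genes tested. An unadjusted p under 0.05 was reached by 3 members, as by 24.4% of all genes.

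The other 6 members overlapped between groups. Gstm1 was at 95.7 and 195 CPM in CO and 146 and 137 CPM in DES, and Gsto1 at 795 and 1481 CPM in CO and 1081 and 1302 CPM in DES. CO B was above CO A for both, and the DES sections lay between them. Gstm7 was at 4.6 to 6.2 CPM over the 4 whole sections, and its highest spot cluster, of 71 CO A spots, was at 14.3 CPM from 1 UMI.

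**Figure D2:**
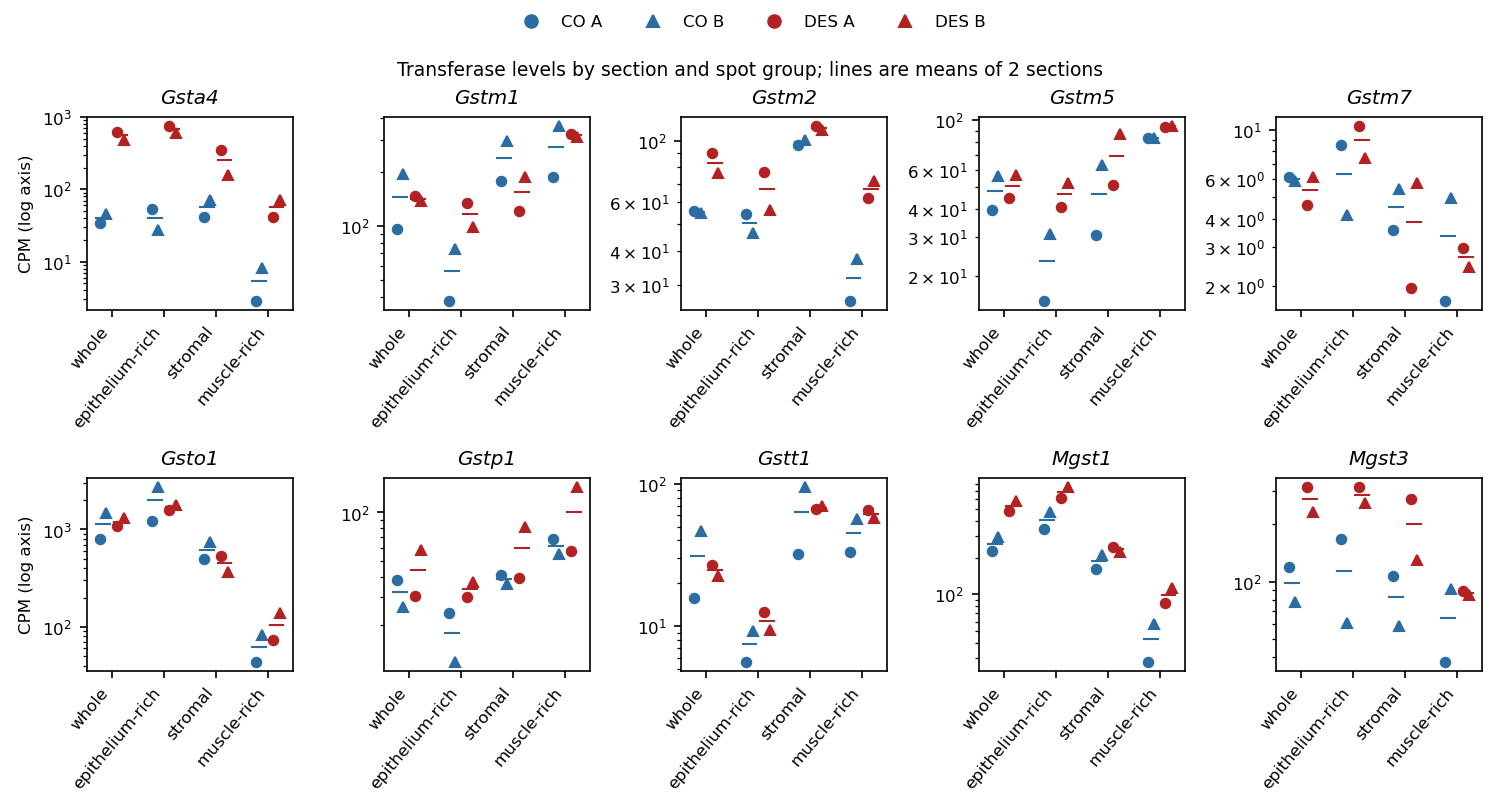
CPM (log axis) of the 10 genes in the 4 sections, for whole sections and for epithelium-rich, stromal and muscle-rich spots; circles are sections A, triangles sections B, blue CO, red DES, and lines are the means of 2 sections. Gsta4 has both DES sections above both CO sections at all 4 positions, from 34.7 and 46.1 CPM in CO to 633 and 484 CPM in DES over whole sections.

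Gsta4 was also higher in DES in epithelium-rich and muscle-rich spots. In epithelium-rich spots Gsta4 was at 53.3 and 27.2 CPM in CO and 763 and 603 CPM in DES, a log2 fold change of 3.78 (SE 0.40, edgeR adjusted p = 0.0153). It was again the only member past the threshold, which 5.04% of genes passed. The adjusted p was 0.0685 without DES A and 0.0777 without DES B, and the log2 fold change was 4.37 without CO A. In muscle-rich spots it was at 2.9 and 8.1 CPM in CO and 41.5 and 71.6 CPM in DES. There it met the filter on low counts through the DES sections only. Its log2 fold change of 3.21 (SE 0.50) is therefore given without a call. The log2 fold change there was 2.62 without CO A and 4.13 without CO B. In stromal spots it was at 41.2 and 71.5 CPM in CO and 354 and 159 CPM in DES, and the log2 fold change of 2.10 did not pass (edgeR adjusted p = 0.0565; 1.47% of genes passed). It passed there with DESeq2 (adjusted p = 0.00677), without the filter on low counts and with stromal spots picked by marker score (3.06, edgeR adjusted p = 0.0101).

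The other members did not pass in epithelium-rich spots. By CPM of raw totals, both DES sections were above both CO sections for 8 of 10 members, Gsta4 included, as they were for 46.3% of genes. The fitted log2 fold change of Gstm2, among the 8, was 0.10, and the median of all genes was -0.02. Mgst3 was at 167 and 60.8 CPM in CO and 315 and 257 CPM in DES. Mgst1 was at 339 and 474 CPM in CO and 615 and 757 CPM in DES. Gsto1 was at 1228 and 2751 CPM in CO and 1585 and 1782 CPM in DES, and here the groups overlapped. Without CO A, 4 members passed (Gsta4, Gsto1, Gstp1 and Mgst3), and without CO B, 3 did (Gsta4, Gstm1 and Gstm5). Calls over all genes rose with them, from 583 of 11578 genes to 2416 of 12042 without CO A and 2188 of 11968 without CO B.

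Markers of another epithelial cell type moved with Gsta4. The basal list (Krt14, Krt5 and Trp63) summed to 3.4 and 160 CPM in the whole CO sections and to 9526 and 5644 CPM in the DES sections. In epithelium-rich spots it summed to 4.3 and 98.2 CPM in CO and 8688 and 4948 CPM in DES, and in muscle-rich spots to 1.7 and 5.6 CPM in CO and 1040 and 879 CPM in DES. The epithelial list was close between groups in epithelium-rich spots, 2906 to 3244 CPM in CO and 2942 to 3234 CPM in DES. In muscle-rich spots it was not, at 20.6 to 23.0 CPM in CO and 157 to 219 CPM in DES, while the muscle list there was at 46589 to 49549 CPM in CO and 22764 to 26515 CPM in DES. The myeloid list in epithelium-rich spots was at 105 to 193 CPM in CO and 578 to 2041 CPM in DES. The muscle list of whole sections was 13345 and 14168 CPM in CO and 3077 and 3458 CPM in DES. The part of these cell types in the Gsta4 result was not tested, and the split by basal UMIs that follows cannot decide it.

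Spots were therefore also summed by whether they held any UMI of the 3 basal genes, a split chosen after the values were seen. Such UMIs were found in 1452 of 1575 spots of DES A and 1267 of 1357 spots of DES B, and in 39 of 1433 spots of CO A and 201 of 1834 spots of CO B. In the spots without them Gsta4 was at 34.2 and 23.3 CPM in CO and 54.3 and 63.7 CPM in DES, from 13 and 14 UMIs in the DES sections. The log2 fold change there was 0.83 (edgeR adjusted p = 0.476), with 123 and 90 DES spots whose median depths were 1085 and 1610 UMIs. In the spots with basal UMIs it was at 44.2 and 167 CPM in CO and 648 and 493 CPM in DES. The spots without basal UMIs also differed in depth and in tissue. Their epithelial list was at 1329 to 1858 CPM in CO and 191 to 1195 CPM in DES. Their muscle list was at 13782 to 16114 CPM in CO and 14246 to 19335 CPM in DES. With 13 and 14 Gsta4 UMIs left in DES, this value cannot separate the cell types.

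In CO B a large part of the Gsta4 signal came from very few spots. Its spot cluster 10, 17 spots led by the stratified keratins Krt6a and Krt13 with Spink5 and Krt6b, was at 1154 CPM and held 227 of the section's 509 Gsta4 UMIs. The other 9 clusters of CO B ran from 7.4 to 71.5 CPM, and all 10 clusters of CO A from 0 to 51.9 CPM. In DES A the highest cluster of 20 or more spots, cluster 1 (332 spots), was led by Tff1, Spink5 and Krt6a and stood at 982 CPM. In DES B it was cluster 7 (106 spots, led by Kap, Akr1c18 and Cxcl5) at 970 CPM, and its cluster led by Dapl1, Trp63 and Lamb3 was at 523 CPM. When the 17 spots were left out, CO B was at 26.0 CPM and the whole-section log2 fold change was 3.98 (edgeR adjusted p = 0.0151).

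**Figure D3:**
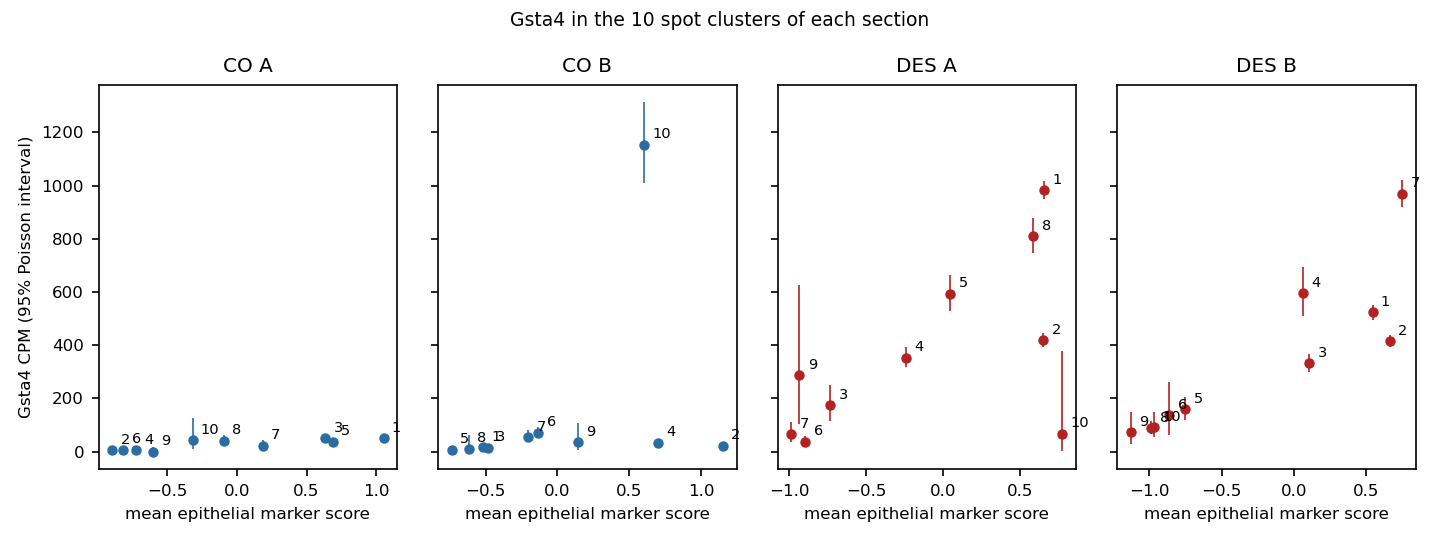
Gsta4 CPM (with 95% Poisson intervals) of the 10 spot clusters of each section against the mean epithelial marker score of the cluster; the numbers beside the points are cluster numbers. In CO A and CO B all clusters lie at or below 71.5 CPM except cluster 10 of CO B at 1154 CPM, while DES clusters with epithelial scores above 0.5 lie between 415 and 982 CPM, except cluster 10 of DES A (2 spots) at 68.0 CPM.

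Within a section, epithelium-rich and muscle-rich spots separated the members into groups. In CO sections Gsto1, Mgst1 and Gsta4 were higher in epithelium-rich spots, with log2 differences of 4.83, 3.18 and 2.73. That of Gsta4 was 1.53 without CO A and 4.12 without CO B. Gstt1, Gstm1, Gstm5 and Gstp1 were lower, by log2 differences of -2.70, -2.41, -2.02 and -1.95. These 7 of 10 members passed the threshold where 50.6% of genes did, and the regions were picked on markers of the same tissue layers. In DES sections the same 7 passed, in the same directions, joined by Mgst3 at 1.44 (edgeR adjusted p = 0.0255), where 38.3% of genes passed. Without DES A, Gstm5 (edgeR adjusted p = 0.0728) and Mgst3 (0.0812) did not pass there, with 2814 of 12745 genes passing.

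The direction of Mgst3 in CO depended on the section: its difference was 0.63 with both, 2.07 without CO B and -0.80 without CO A. The difference of this contrast between DES and CO passed for no member, where 3.9% of genes passed. It was -1.06 for Gsto1 (edgeR adjusted p = 0.0920), and 3 of 10 members reached an unadjusted p under 0.05, as did 17.1% of all genes. DESeq2 also called no member. With the top 25% of spots Gsto1 passed, and 4 members passed without CO A and 4 without CO B, with 1360 of 12669 and 1289 of 12719 genes.

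In the stromal clusters, compared with the rest of the section, Gstt1, Gstm2 and Gstm1 were higher in CO by 1.10, 0.87 and 0.76 on the log2 scale, and Gsto1 and Mgst1 lower, at -0.93 and -0.56. The edgeR adjusted p ran from 0.000457 for Gsto1 to 0.0438 for Mgst1, and 12% of genes passed. Without CO B only Gsto1 passed, with 670 of 14082 genes, and with DESeq2 Gsto1 and Gstt1 did, with 685 of 13542 genes. In DES sections Gstt1 was higher at 1.75 and Gsta4, Mgst1 and Gsto1 lower at -1.14, -1.13 and -1.38, where 12.8% of genes passed. Spot clusters were formed on these counts, so these p-values are likely too small.

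The contrast of stromal with other spots differed between DES and CO for Gsta4. In CO the stromal spots were at 41.2 and 71.5 CPM and the other spots at 34.4 and 43.8 CPM. In DES they were at 354 and 159 CPM and the other spots at 668 and 496 CPM. The difference of the 2 contrasts was -1.62 on the log2 scale (SE 0.31, edgeR adjusted p = 0.00103), and 3.37% of genes passed. It was -1.25 (adjusted p = 0.128) without CO B and -0.50 (edgeR adjusted p = 0.418) when stromal spots were instead picked by marker score. In DES B, 53 of the 132 stromal spots were also among the muscle-rich spots, against 4 of 211 in DES A and none in CO.

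The single-cell and section values of the epithelium did not line up for every member. Gsta4 was higher in DES in both, at 112 CPM in DES epithelial cells and at 763 and 603 CPM in DES epithelium-rich spots. The sizes differed, with a DES to CO ratio of 2.86 in cells and a fitted fold of 13.7 in epithelium-rich spots. Mgst3 was lower in DES epithelial cells (ratio 0.469), and in epithelium-rich spots both DES sections were above both CO sections, as for 46.3% of genes, with a log2 fold change of 1.02 (SE 0.48) that did not pass (edgeR adjusted p = 0.267). Gsto1 was higher in DES epithelial cells (ratio 1.59), while its epithelium-rich spots overlapped between groups. Mgst1 had a ratio of 1.94 in cells. In epithelium-rich spots its DES sections were also above its CO sections, and its log2 fold change of 0.47 did not pass (edgeR adjusted p = 0.340). The difference between the assays was not tested.

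**Figure D4:**
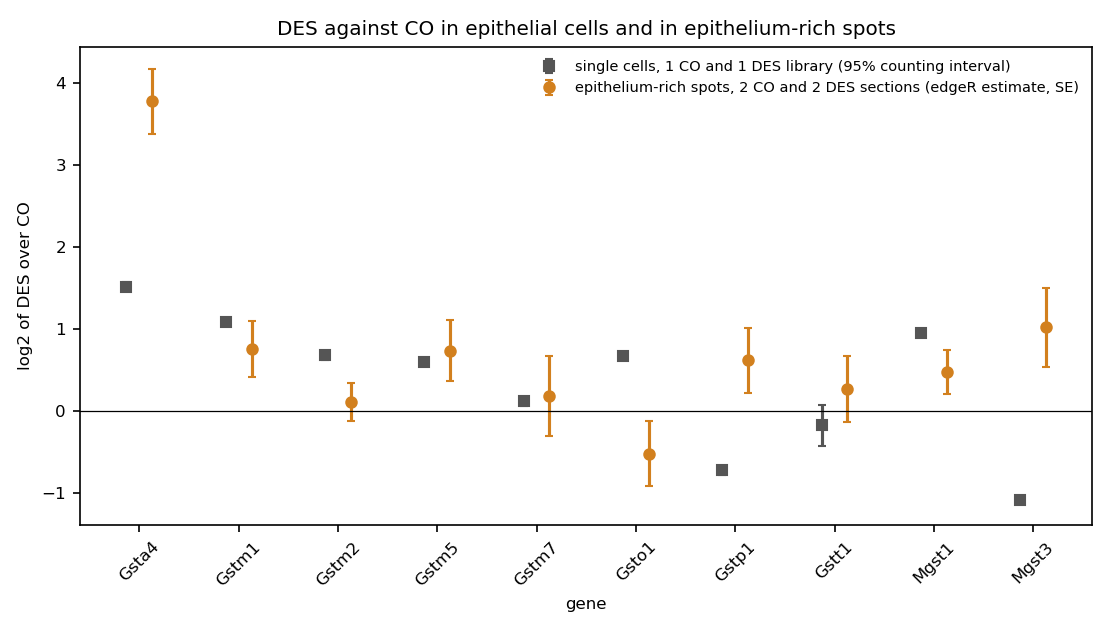
Log2 of DES over CO for the 10 genes in epithelial cells (grey squares, 1 CO and 1 DES library, 95% counting intervals) and in epithelium-rich spots (orange circles, edgeR estimates from 2 CO and 2 DES sections, bars are SE). Gsta4 lies far above 0 in spots at 3.78 and above 0 in cells, and Mgst3 lies below 0 in cells and above 0 in spots.

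The rest of the glutathione pathway was read from 4 lists: glutathione synthesis and recycling, NRF2 and its targets, other transferases, and export and breakdown of conjugates. In clustered epithelial cells, 5 of 12 genes of synthesis and recycling at 20 CPM or more were lower in DES by 2-fold or more and none higher, beside 8.13% and 5.5% of all genes. They were Gsr, glutathione reductase (ratio 0.497), Txnrd1, thioredoxin reductase (0.498), Pgd, an NADPH-making enzyme of the pentose phosphate pathway (0.397), Glrx, glutaredoxin (0.310), and Me1, malic enzyme (0.233). Gsr and Txnrd1 lay just past the 2-fold line. Over all epithelial cells 4 of 12 were lower by 2-fold or more, with Gsr at 0.501.

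None of 10 NRF2 list genes at that level passed 2-fold in either direction. Gsr, Txnrd1, Pgd and Me1 were counted under synthesis and recycling and not in this list, so the count does not cover all NRF2 targets. Hpgds, the glutathione-dependent prostaglandin D synthase, was lower (0.299) among 4 other transferases. Abcc3, an exporter of conjugates, was higher (2.95) among 7 genes of export and breakdown. In mesothelium, among listed genes at 20 CPM or more, Gsta3 (2.16) and Akr1b8 (2.18) were higher by 2-fold or more in DES and none was lower, beside 1.75% and 2.11% of all genes. Genes below that level in both libraries were not counted. They include the following genes, a selection named after their values were seen. The microsomal transferase Mgst2 was at 9.1 CPM in CO and 3.6 CPM in DES mesothelium (ratio 0.396). In clustered epithelium the kappa class transferase Gstk1 was at 1.5 CPM in CO and 9.6 CPM in DES (6.38). Gsta3 ran the other way in those cells, at 9.6 CPM in CO and 3.8 CPM in DES (0.398). The NRF2 list gene Hmox1, heme oxygenase, was there at 17.3 CPM in CO and 5.2 CPM in DES (0.302).

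Over whole sections, where 5.3% of all genes passed, 1 of 14 genes of synthesis and recycling did: Gclm, the modifier subunit of glutamate-cysteine ligase, rose by 1.01 on the log2 scale (SE 0.17, edgeR adjusted p = 0.0443). Of 15 genes of export and breakdown 2 fell: Chac2, which degrades glutathione, at -1.80 (adjusted p = 0.0349), and the aminopeptidase Anpep at -1.72 (edgeR adjusted p = 0.0212). None of 16 NRF2 list genes and none of 12 other transferases passed in edgeR, and 6 and 4 of them reached an unadjusted p under 0.05, beside 24.4% of all genes. The lists were not counted with DESeq2. In epithelium-rich spots, where 5.04% of all genes passed, Chac2 and Anpep fell again, at -2.03 and -1.61. In clustered epithelial cells Anpep went the other way, at 343 CPM in CO and 396 CPM in DES (ratio 1.16). Chac2 was lower in those DES cells as well (0.632), and Gclm had a ratio of 0.912. The difference between the assays was not tested. In stromal and muscle-rich spots 1.47% and 1.8% of all genes passed. The aldehyde dehydrogenase Aldh3a1, of the NRF2 list, met the filter on low counts there through the DES sections, so its values are given without a call. In stromal spots it had 0 and 4 UMIs in CO and 82 and 21 UMIs in DES, where the basal list summed to 0 and 89.97 CPM in CO and 7058 and 1998 CPM in DES. In muscle-rich spots it had no UMI in either CO section and 7 and 27 UMIs in DES, at least 25.4-fold higher against a floor of 3 counts over the CO group. In single cells Aldh3a1 was at 121 CPM in the 483 DES basal cells and at 1.5 CPM in the clustered DES epithelium. Anpep fell in stromal spots (-2.33), and Ggt5, a gamma-glutamyl transferase, fell in muscle-rich spots (-1.31). The muscle list in stromal spots was at 700.2 to 888 CPM in CO and 2705 to 8369 CPM in DES, and the stroma list in muscle-rich spots at 1722 to 2019 CPM in CO and 784 to 1057 CPM in DES. Their part in these falls was not tested.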

How the data were processed

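The deposited count tables held raw UMI counts per gene and barcode or spot, made by the authors with Cell Ranger 3.0.1 and Space Ranger 1.2.2 on mm10 (bcl2fastq 2.20.0.422 before). The authors removed doublets before giving cell types. Cell types, epithelial clusters and spot clusters were taken from the deposited annotation. Scrublet, run in scanpy 1.11.5, marked 5.22% of CO and 3.92% of DES cells. No count column of another sample was present.

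UMIs were summed per group of cells and given as CPM, with exact Poisson intervals (exact Clopper-Pearson intervals for shares of cells) at the 95% level. Ratios of CPM carry exact counting intervals, and all cover counting error only. For shares, cells were thinned to 3000 UMIs and shallower cells left out. Sums per section were tested with edgeR 4.0.16 (TMM factors, filterByExpr, glmQLFit and glmQLFTest, two-sided, Benjamini-Hochberg over all genes). The section block was used only for contrasts within sections. DESeq2 1.42.0, other scalings, no filter, other spot groups and each section left out were alternatives. The scripts were tested on simulated data. Replicate letters did not pair the sections: the correlation of same-letter deviations ran from -0.01 to 0.09.

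The members and gene lists were chosen with earlier results of these data known. All 10 members are named, with the gene of likest cluster profile (of 3 found) for those dwelt on, by Pearson correlation of log2(CPM + 1), and the listed pathway genes past the threshold or past 2-fold. Sequences came from GENCODE and RefSeq (GRCm38.p6).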

Additional observations from a re-analysis of the deposited data

Results flagged for a closer look

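The contrast of stromal with other spots differed between groups for Gsta4, by -1.62 on the log2 scale (DES minus CO, edgeR adjusted p = 0.00103). It ran from -2.02 to -1.25 with a section left out. As given above, it was smaller and did not pass with stromal spots picked by marker score. In CO the stromal clusters were at 41.2 and 71.5 CPM and the other spots at 34.4 and 43.8 CPM. In DES the stromal clusters were at 354 and 159 CPM and the other spots at 668 and 496 CPM. The basal marker list summed to 0 and 89.97 CPM in the CO stromal clusters and to 7058 and 1998 CPM in the DES stromal clusters. In the other spots it summed to 3.5 to 166 CPM in CO and to 5777 to 9836 CPM in DES. Its part in the result was not tested.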

How the results depend on the processing

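Over whole sections 1 member passed in the reported test and 3 passed with DESeq2 (Gsta4, Mgst1 and Mgst3). With each section left out in turn 0 to 4 passed. None passed over spots without a basal UMI, an alternative chosen after seeing the data, where Mgst1 (-0.83) and Mgst3 (-0.58) turned negative and the epithelial list was at 1329 to 1858 CPM in CO and 191 to 1195 CPM in DES. In stromal spots the count went from 0 to 1 with DESeq2, to 2 without a filter, to 2 with the replicate block and to 1 with stromal spots by marker score. It stayed at 0 with each section left out. In epithelium-rich spots it was 0 to 4 with each section left out. In muscle-rich spots it was 1 to 6, the 6 without CO B, and 2 with the replicate block. Stromal against other spots in CO went from 5 members to 2 with DESeq2, and to 1 to 5 with a section left out. The difference in stromal enrichment went from 1 to 0 by marker score and was 0 to 1 with a section left out. The difference of epithelium over muscle went from 0 to 1 with the top 25% of spots and was 0 to 4 with a section left out, with 216 to 1360 of all genes. Mgst3 in epithelium-rich against muscle-rich CO spots ran from -0.80 to 2.07 with a section left out. In epithelial cells, a mean over cells of CPM in place of summed UMIs left 1 member higher by 2-fold, where 2 had been, and 0 lower, where 1 had been. The replicate block, which pairs sections that share only a letter, changed no other count of members. The causes of these changes were not tested.

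Counts of all genes past the threshold also moved. Over whole sections there were 747, against 1791 with DESeq2 and 3 to 2819 with a section left out. In stromal spots there were 131, against 714 without a filter, 453 with the replicate block and 315 by marker score. In epithelium-rich spots there were 583, against 1038 with DESeq2, 1109 without a filter and 1027 with the replicate block. In muscle-rich spots there were 174, against 688 without a filter, 596 with the replicate block, 414 with the top 25% of spots and 77 to 1293 with a section left out (1293 without CO B). With 2 sections per group, the spread rests on few mice.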

Other observations

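Cells without an annotated cell type numbered 20134 in the CO and 6611 in the DES library. Among them Gsto1 was at 342 CPM in CO and 890 CPM in DES, Gsta4 at 63.4 and 132 CPM, and Mgst1 at 298 and 501 CPM. Gstm5 was at 452 CPM in CO and 354 CPM in DES. The 17 keratin-led spots of CO B, besides Gsta4 at 1154 CPM, were at 5731 CPM for Gsto1, 392 CPM for Mgst1 and 147 CPM for Mgst3, and held no Gstm7 UMI.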
